A study of Mus musculus with 6 samples.

Results

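Integrins are the receptors that fasten cells to the extracellular matrix and to other cells, and laminins are the matrix proteins that many of them hold. The genes of both families were examined in the gastrocnemius muscle (the large calf muscle) of male mice, all C57BL/6J per the methods of the study, 3 of them young (13 weeks of age) and 3 aged (26 months of age), with 1 single-colour Agilent array per mouse. A gene was included when its symbol was that of an integrin alpha chain (Itga followed by numbers or letters), an integrin beta chain (Itgb1 to Itgb8) or a laminin alpha, beta or gamma chain (Lama, Lamb and Lamc). The RefSeq annotation holds 37 such symbols, of which 36 had 48 probes on the array, and Itgae was not analysed here. Of the 36 genes, 32 (21 integrins and 11 laminins) gave a signal well above background in 3 or more of the 6 mice and were tested, among 20900 genes and unnamed identifiers in all. Itga2, Itgad and Itgb8 were not well above background in any mouse. Itga2b, the alpha chain of the platelet fibrinogen receptor, was so in 0 of 3 young and 2 of 3 aged mice. Its mean over the 3 aged mice was 1.30-fold a bound on the young mean. Since aged mouse 2 was itself below the lowest signal well above background on its array, this is no firm lower limit. The groups overlapped, since aged mouse 2 was below young mouse 2, and this comparison of means was not tested. Such a bound sets the aged mean against the higher of the probe's own signal and the lowest signal well above background on each young array.

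Each integrin is a pair of 1 alpha and 1 beta chain, and the pair decides what the receptor binds. Leukocytes use the beta2 chain (Itgb2) with its own alpha chains (Itgal, Itgam, Itgax, Itgad) to hold ICAM proteins and complement fragments, whereas muscle fibres hold laminin with alpha7 beta1 (Itga7 and Itgb1). A laminin is a cross-shaped trimer of 1 alpha, 1 beta and 1 gamma chain. The sheath of the muscle fibre is built mainly of the chains alpha2, beta1 and gamma1, and the neuromuscular synapse and blood vessels also contain alpha4, alpha5 and beta2. Loss of the alpha2 chain or of integrin alpha7 causes congenital muscle disease.

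The muscle markers Acta1, Ckm, Mb, Myh1, Myh4 and Actn3 were all tested, and their mean signal was between 8.53 and 9.85 on the log2 scale in both age groups, where 0 is the 75th percentile of the array. Between 48.7% and 53.8% of probes were well above background per array, and arrays of the same group correlated at 0.976 to 0.990 across genes, which are not independent replicates. The 6 arrays shared 1 slide. All 3 young mice and aged mouse 1 were in row 1 and aged mice 2 and 3 in row 2, so that age and row are partly confounded. Levels below are log2 signals relative to the 75th percentile, and changes are log2 fold changes of aged over young mice from limma, with p-values adjusted by Benjamini-Hochberg over all 20900 genes. All 6 muscle markers had a lower mean in aged mice (median change -0.19, from -0.33 for Myh1 to -0.01 for Acta1), none past an adjusted p of 0.05 in limma. In a whole muscle, fewer cells of a type and less RNA per cell cannot be told apart.

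None of the 32 integrin and laminin genes passed an adjusted p of 0.05 in limma (0 of 32), where 53 of all genes did (0.254%). The lowest adjusted p among the members was 0.149, for Itga8. At an unadjusted p under 0.05, 7 of the 32 (21.9%) were lower and 3 (9.38%) higher in aged mice, beside 8.38% and 6.07% of all genes. The 3 higher members include Itgax, whose probe met the filter on low signals through the aged mice alone, so its place in the count is no support. The aged mice were all below the young mice for 8 members (25%), compared with 13.9% of all genes, and all above them for 2 (6.25%), compared with 7.92%. The mean was lower in aged mice for 21 of the 32 members (65.6%) and for 56.9% of all genes. The median change was -0.19 over the members and -0.06 over all genes tested. These counts depended on single mice and on the slide row. The 7 and 3 became 4 and 2 without aged mouse 3 (4.53% and 4.33% of all genes) and 5 and 5 without young mouse 1 (6.13% and 5.92%). They became 3 and 1 with the row as a block (7.08% and 4.85%), and 2 and 2 within row 1 (6.22% and 4.79%), which sets aged mouse 1 alone against the young mice. Within row 1, the share of lower members (6.25%) was thus that of all genes to within 1 gene.

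**Figure D1:**
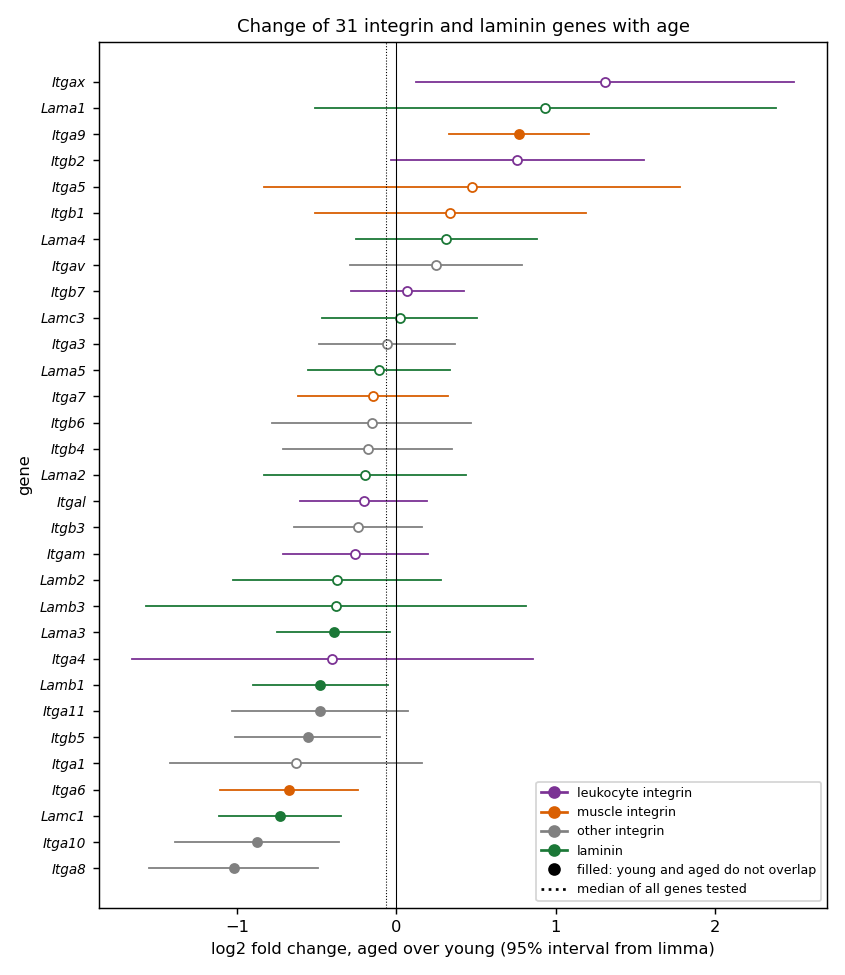
Change of each integrin and laminin gene with age. The x axis is the log2 fold change of aged over young mice (3 each) with its 95% interval from limma, and the y axis lists 31 of the 32 genes tested, coloured by class, with filled points where the young and aged values did not overlap and a dotted line at the median of all genes. The points run from -1.02 (Itga8) to 1.31 (Itgax, most of whose young values were near background), and 8 of the 9 filled points lie below 0.

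Of the 8 leukocyte integrin genes listed, 6 were tested, of which 3 had a higher and 3 a lower mean in aged mice (median change -0.07). Itgb2 encodes the beta2 chain shared by the leukocyte-specific receptors. Young mice 1 to 3 had levels of -1.11, -1.24 and -2.09, and aged mice 1 to 3 had levels of -0.48, -1.23 and -0.45, the order in which values of single mice are given throughout. Aged mice 1 and 3 were above all young mice, whereas aged mouse 2 was within the young range. The change was 0.76 (1.69-fold, standard error 0.33, adjusted p = 0.366 from limma), 0.34 after normexp background correction and 0.46 without young mouse 3.

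Itgax (CD11c, found on dendritic cells and some macrophages) had a level of -3.04, -3.58 and -4.96 in young mice and -2.22, -3.05 and -2.37 in aged mice. Its probe gave a signal well above background in 1 young and 3 aged mice, and the groups overlapped only in that aged mouse 2 was just below young mouse 1. Since the probe met the filter on low signals through the aged mice alone and most young values were near background, the fitted change of 1.31 (standard error 0.50, adjusted p = 0.314) is not a measured fold. It was 0.76 without young mouse 3 and 0.30 under normexp background correction. Itgam (CD11b, on macrophages, monocytes and neutrophils) had a level of 4.32, 4.70 and 4.71 in young and 4.17, 4.55 and 4.25 in aged mice. The groups overlapped, and the change was -0.26 (standard error 0.19, adjusted p = 0.567). Its 2 other probes changed by -0.13 and 0.07. Their young means were far lower, at -1.92 and -3.67 beside 4.58 for the probe used, and which of them best reports the gene was not tested.

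The remaining leukocyte alpha chains were not higher on average. Itgal (CD11a, mainly on lymphocytes) was -2.22, -1.95 and -2.12 in young and -2.23, -2.49 and -2.19 in aged mice, a change of -0.20 (adjusted p = 0.602), with overlapping groups. Itga4, the chain with which lymphocytes hold VCAM1 and which myoblasts and satellite cells also make, was 1.21, 0.47 and 1.62 in young and -0.46, 1.30 and 1.25 in aged mice. Only aged mouse 1 was below the young range, and without it the change of -0.40 became 0.18. The other Itga4 probe was not well above background in any mouse. Itgb7, the partner of alpha4 in gut-homing lymphocytes, was -1.38, -1.30 and -1.25 in young and -1.14, -1.24 and -1.34 in aged mice, a change of 0.07 with a 95% interval of -0.28 to 0.42.

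Markers of the cells that carry these integrins were measured on the same arrays. Of 6 markers of all leukocytes, Ptprc, Coro1a, Lcp1 and Laptm5 were tested, and all 4 had a higher mean in aged mice (median change 0.89), none past the threshold. Their summed level, in multiples of the 75th percentile, was 2.40 to 2.89 in young and 3.78 to 5.93 in aged mice. Ptprc, which encodes CD45 on the surface of all leukocytes, had a change of 1.01 (adjusted p = 0.269). Its young values of -3.28, -3.82 and -4.31 were near background, which limits this change. The lowest signals well above background on those arrays were -4.20, -3.91 and -3.88, and young mouse 3 was below its own. Of 6 macrophage markers, 5 were tested and 4 had a higher mean (median 0.46), Cd68 having the highest change (1.08, adjusted p = 0.175) and Csf1r the lowest (-0.05). Their summed level was 17.7 to 19.3 in young mice and 19.3 to 24.2 in aged mice. All 4 lymphocyte markers tested of 7 had a lower mean (median -0.25, with Cd3e at -0.02), with a summed level of 6.65 to 7.20 against 5.29 to 6.73. Of 5 dendritic cell markers 3 were tested (median -0.02, from -0.18 for Flt3 to 0.88 for Cd209a, summed level 0.28 to 0.47 against 0.44 to 0.66). Of 6 neutrophil markers only Elane was tested (-0.31, 0.56 to 0.68 against 0.41 to 0.53), and the defining markers Ly6g, Mpo, Ngp, Ltf and Cxcr2 had no probe that passed the filter. The part of these cells in the values of Itgb2 and Itgax was not tested.

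**Figure D2:**
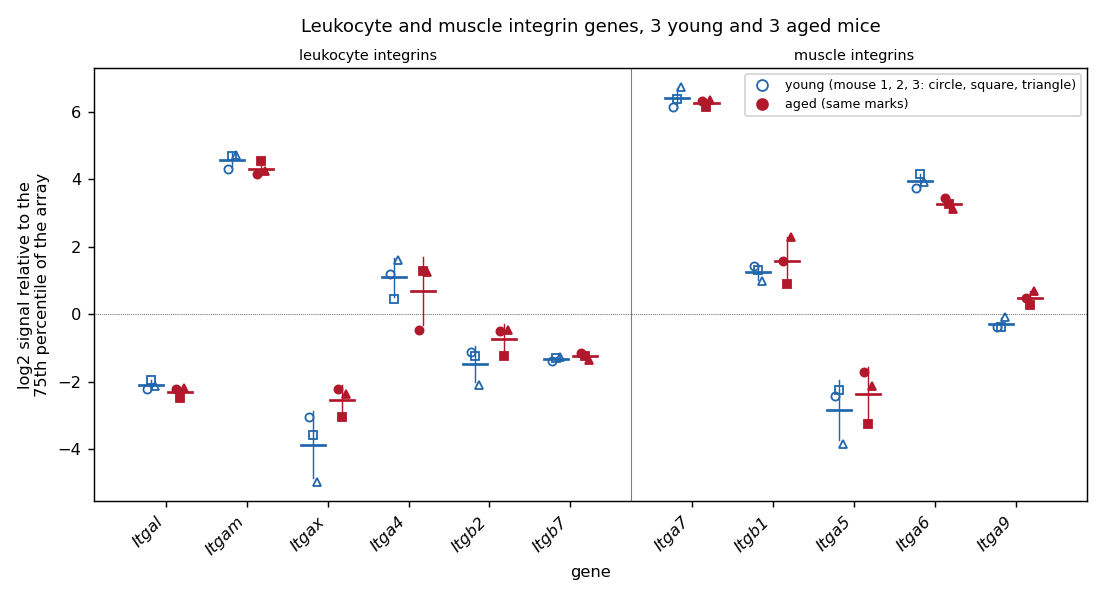
Leukocyte and muscle integrin genes by mouse. The y axis is the log2 signal relative to the 75th percentile of the array and the x axis the gene, with 1 point per mouse, a bar at the mean and a line of 1 SD to each side (n = 3 young, open, and 3 aged, filled). For Itga9 and Itga6 the groups were apart, in opposite directions, and for the other 9 genes they overlapped. Levels of different genes come from different probes and cannot be ranked.

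The 5 muscle integrin genes were all tested. Itga7, the laminin receptor chain of the mature fibre, differed little between the groups. Its level was 6.14, 6.40 and 6.73 in young and 6.33, 6.14 and 6.35 in aged mice, so that all 3 aged values were within the young range. The change was -0.15 (0.902-fold, standard error 0.20, adjusted p = 0.756), with a 95% interval of -0.62 to 0.32. Itgb1, the beta chain with which alpha7 and most other matrix-binding alpha chains pair, was 1.45, 1.32 and 1.0 in young and 1.59, 0.89 and 2.31 in aged mice. Aged mice 1 and 3 were above and aged mouse 2 below all young mice. The change of 0.34 (adjusted p = 0.684) was -0.01 without aged mouse 3, and the other Itgb1 probe changed by 0.19.

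The clearest separation of the groups within this list was seen for Itga6 and Itga9, in opposite directions. Itga6 encodes a laminin receptor chain of satellite cells, endothelium and, with beta4, of Schwann cells and epithelia. It was 3.75, 4.16 and 3.93 in young and 3.44, 3.27 and 3.11 in aged mice, with all aged mice below all young mice (0.627-fold, log2 fold change -0.67, standard error 0.18, adjusted p = 0.202). Itga9, which binds tenascin-C, VCAM1 and osteopontin and pairs with beta1, was -0.38, -0.38 and -0.07 in young and 0.48, 0.29 and 0.71 in aged mice. Here every aged mouse was above every young mouse (1.70-fold, log2 fold change 0.77, standard error 0.19, adjusted p = 0.168). Over the 18 alternative settings the change lay between -0.82 and -0.50 for Itga6 and between 0.50 and 0.87 for Itga9. Since the groups did not overlap, leaving out a mouse or using the slide row could not reverse either direction. The filter, the variance trend and the replicate block left both changes as they were. Background correction, normalization and scaling could have reversed them and did not. Itga5, the fibronectin receptor chain, was -2.41, -2.23 and -3.86 in young and -1.70, -3.26 and -2.11 in aged mice, a change of 0.48 with a wide interval (-0.83 to 1.78) and overlapping groups, and -0.04 without young mouse 3.

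The median change was -0.07 for the 6 leukocyte integrins and 0.34 for the 5 muscle integrins, the latter being the value of Itgb1. The range of single genes was wide in both lists, from -0.40 (Itga4) to 1.31 (Itgax) and from -0.67 (Itga6) to 0.77 (Itga9). The value of Itgax is not a measured fold, since most of its young values were near background. The median for muscle integrins differed by mouse, at 0.33, -0.36 and 0.72 relative to young mice in aged mice 1 to 3, and it was 0.01 without young mouse 3, -0.01 without aged mouse 3 and 0.15 without aged mouse 1. Restricted to probes that were well above background in all 6 mice it was 0.10, and it was 0.15 after normexp. To compare the beta chains of both lists, the difference between log2 Itgb2 and log2 Itgb1 was taken in each mouse. It was -2.56, -2.57 and -3.08 in young and -2.07, -2.12 and -2.76 in aged mice. The groups overlapped, because aged mouse 3 was below young mice 1 and 2. The shift of 0.42 gave p = 0.3 in an exact two-sided permutation test, in which 3 mice against 3 allow no p below 0.1, and after normexp it was 0.01. The test could therefore not pass 0.05 whatever the values.

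The promoters of some of these genes are shown to place them in the genome and to show what sequence lies at their starts. RefSeq windows of 250 bases before to 50 bases after a start (GRCm38.p6) were found for 23 member genes, in 26 windows. Itgam and Itgax lie on the same strand of chromosome 7, with 66.6 kb between their windows, and encode chains that pair with beta2. Itgb1 and Lamb1 are shown as the beta chains of the muscle integrins and of the fibre laminin. Capitals mark GAGGAA, a hexamer within binding sequences of the myeloid factor PU.1, and GGGCGG, the GC box, searched on both strands, where they read TTCCTC and CCGCCC.
Itgam (chr7:128062390-128062689, plus strand): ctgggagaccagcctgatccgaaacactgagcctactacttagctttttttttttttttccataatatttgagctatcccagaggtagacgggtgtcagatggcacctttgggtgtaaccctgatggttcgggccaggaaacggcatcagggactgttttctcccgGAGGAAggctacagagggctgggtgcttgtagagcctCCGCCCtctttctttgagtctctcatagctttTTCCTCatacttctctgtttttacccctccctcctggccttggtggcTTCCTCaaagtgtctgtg
Itgax (chr7:128129300-128129599, plus strand): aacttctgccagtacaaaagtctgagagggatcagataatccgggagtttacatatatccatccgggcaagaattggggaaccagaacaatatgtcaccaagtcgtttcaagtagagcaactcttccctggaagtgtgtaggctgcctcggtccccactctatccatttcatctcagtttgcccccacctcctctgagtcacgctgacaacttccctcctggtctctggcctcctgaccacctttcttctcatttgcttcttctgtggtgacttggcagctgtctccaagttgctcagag
Itgb1 (chr8:128685404-128685703, plus strand): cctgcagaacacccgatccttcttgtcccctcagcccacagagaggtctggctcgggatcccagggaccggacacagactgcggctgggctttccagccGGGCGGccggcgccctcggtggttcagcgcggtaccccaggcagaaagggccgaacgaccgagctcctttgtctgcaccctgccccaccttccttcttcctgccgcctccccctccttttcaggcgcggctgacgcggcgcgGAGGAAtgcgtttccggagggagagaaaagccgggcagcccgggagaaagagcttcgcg
Lamb1 (chr12:31265043-31265342, plus strand): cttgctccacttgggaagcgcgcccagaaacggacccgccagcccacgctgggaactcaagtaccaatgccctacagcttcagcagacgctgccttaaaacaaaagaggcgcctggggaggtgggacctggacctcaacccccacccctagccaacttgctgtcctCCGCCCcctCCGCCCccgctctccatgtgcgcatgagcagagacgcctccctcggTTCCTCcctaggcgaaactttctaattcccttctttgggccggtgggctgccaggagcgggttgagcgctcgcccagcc

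GAGGAA was found at 3 places in the Itgam window, at none in that of Itgax and at 1 each in those of Itgb1 and Lamb1. It was present in 14 of the 26 member windows (53.8%) and in 28.3% of all 32851 windows of this length. GGGCGG was present in 12 of the 26 (46.2%) and in 35.7% of all windows, with 1 place in Itgam, none in Itgax, 1 in Itgb1 and 2 in Lamb1. TATAAA, searched likewise, was present in 0 of the 26 and in 13.6% of all windows. The 26 windows hold Itga3, Itgb6 and Lamb3 at more than 1 start each, and no share was tested against that of all windows. The hexamers did not overlap in the windows shown, and a match of letters is a description of the window only.

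Of the 11 laminin chain genes, all were tested, and 7 had a lower and 4 a higher mean in aged mice (median change -0.20). This median was -0.07 without young mouse 2, -0.08 without aged mouse 3, -0.13 without young mouse 1, -0.33 without young mouse 3 and -0.40 without aged mouse 1. The 3 chains of the muscle fibre laminin were all lower on average (median -0.48). Lamc1, the gamma1 chain common to nearly all laminins of muscle, nerve and vessels, was 5.13, 5.21 and 5.15 in young mice and 4.55, 4.23 and 4.51 in aged mice. The young values lay close together, and every aged mouse was below them (0.603-fold, log2 fold change -0.73, standard error 0.16, adjusted p = 0.150). Lamb1, the beta1 chain, was 3.66, 3.51 and 3.90 in young and 3.25, 3.35 and 3.04 in aged mice, again without overlap (0.719-fold, log2 fold change -0.48, standard error 0.18, adjusted p = 0.303). Lama2, the alpha2 chain that is particular to muscle and peripheral nerve, was 4.33, 4.39 and 3.86 in young and 4.45, 3.61 and 3.93 in aged mice. Aged mouse 1 was above and aged mouse 2 below all young mice, and the change was -0.20 (standard error 0.27, adjusted p = 0.761) for this probe and -0.16 for the other.

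Over the 18 alternative settings the change lay between -0.88 and -0.59 for Lamc1 and between -0.62 and -0.37 for Lamb1. The lowest adjusted p of Lamc1 in limma was 0.104. Since neither gene overlapped between the groups, leaving out a mouse or using the slide row could not reverse the direction. Blocking on the slide row, the change was -0.61 for Lamc1 and -0.44 for Lamb1, but 0.26 for Lama2. The median over these 3 chains was below the young mean in each aged mouse (-0.44, -0.59 and -0.65 in mice 1 to 3). This had to be so whatever the value of Lama2, because Lamc1 and Lamb1 were each lower in every aged mouse.

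The chains of synapses and vessels overlapped between the groups. Lama4, which surrounds capillaries and the motor nerve terminal, was 1.54, 1.03 and 0.70 in young and 1.55, 1.30 and 1.37 in aged mice (change 0.32, adjusted p = 0.571). Lama5, a chain of arterioles and of the synaptic cleft, was 3.73, 3.90 and 3.53 in young and 3.84, 3.57 and 3.42 in aged mice (change -0.11, adjusted p = 0.811). Lamb2, the beta2 chain concentrated at the synapse, was 3.84, 3.90 and 4.0 in young mice, and 4.15, 3.34 and 3.15 in aged mice. For Lamb2 aged mouse 1 was above and aged mice 2 and 3 were below all young mice, which gave a change of -0.37 (adjusted p = 0.562), -0.67 without aged mouse 1 and 0.23 with the row as a block. Aged mouse 1 also stood apart from the other aged mice in the median over all 11 laminins, at 0.23 compared with -0.32 and -0.30, and the median change of -0.20 was 0.23 with the row as a block. For the mice of row 2, age and row cannot be told apart.

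**Figure D3:**
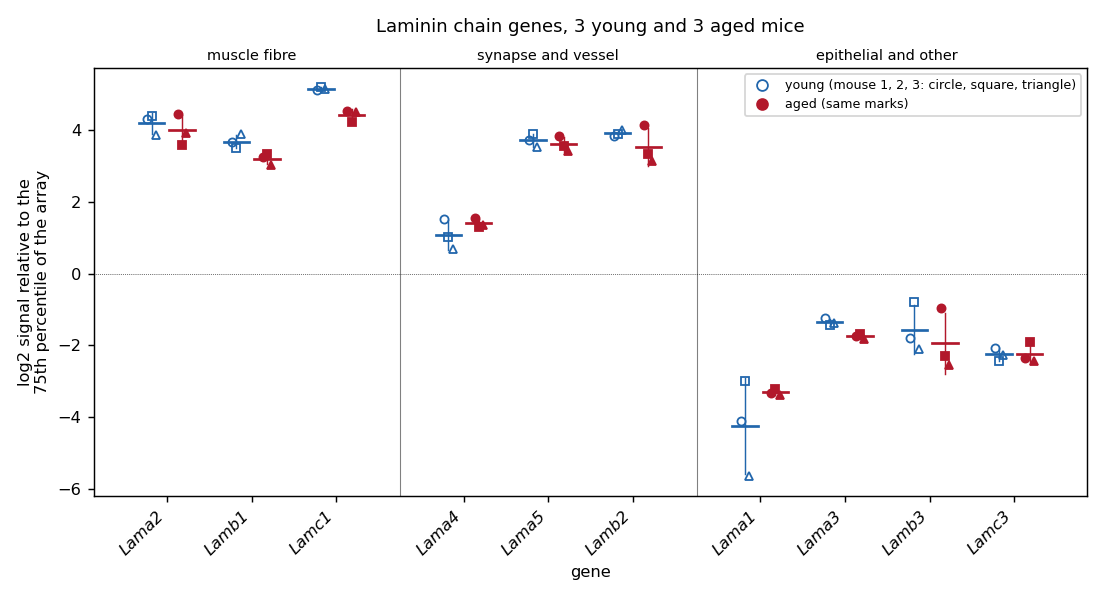
Levels of 10 laminin chain genes by mouse. The y axis is the log2 signal relative to the 75th percentile of the array and the x axis the gene, grouped by where the chain is mainly found, with 1 point per mouse, a bar at the mean and a line of 1 SD to each side (n = 3 young, open, and 3 aged, filled). Lamb1, Lamc1 and Lama3 were lower in every aged mouse than in any young mouse, and the circle of aged mouse 1 lies apart from the other aged mice for Lamb2 and Lamb3.

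Among the 5 chains of epithelial and other laminins, alpha3 and beta3 belong to the laminin of skin and other epithelia. Lama3, named after its values were seen, was -1.25, -1.44 and -1.37 in young and -1.74, -1.68 and -1.82 in aged mice, without overlap (change -0.39, adjusted p = 0.313). Lamb3 overlapped between the groups (change -0.38, adjusted p = 0.756). Lama1, an embryonic chain, was -4.10, -2.98 and -5.65 in young and -3.33, -3.23 and -3.37 in aged mice, with a signal well above background in 1 young and 2 aged mice. Its change of 0.94 (adjusted p = 0.513) was 0.13 after normexp. Lamc3 had a change of 0.02. Of 5 epithelial markers, Trp63, Cldn7 and Krt14 were tested (changes of -0.43, -0.08 and 0.36, median -0.08, summed level 22.0 to 25.9 in young and 15.8 to 21.7 in aged mice), and Epcam and Krt5 had no probe that passed the filter. Their part in the level of Lama3 was not tested.

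The other 10 integrin genes tested were lower on average in 9 cases (median change -0.36), Itgav being the exception (0.25). Itga8, a receptor chain for nephronectin and fibronectin on smooth muscle and mesenchymal cells, had the lowest change among the members. It was -1.11, -0.94 and -0.48 in young and -1.63, -1.88 and -2.07 in aged mice, without overlap (0.493-fold, log2 fold change -1.02, standard error 0.22, adjusted p = 0.149). Itga10, a collagen receptor chain of cartilage and connective tissue, was -0.54, -0.19 and -0.62 in young and -1.16, -1.15 and -1.66 in aged mice (0.546-fold, log2 fold change -0.87, standard error 0.22, adjusted p = 0.176), and its other probe changed by -0.80. Over the 18 settings Itga8 lay between -1.17 and -0.72 and Itga10 between -1.02 and -0.66. Neither gene overlapped between the groups, so leaving out a mouse or using the slide row could not reverse the direction.

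All 3 collagen-binding alpha chains tested had a lower mean in aged mice (median -0.63). Beside Itga10 these were Itga11, a collagen receptor chain of fibroblasts, at 2.71, 2.80 and 2.86 against 2.67, 2.41 and 1.86 (change -0.48, adjusted p = 0.402), and Itga1, at -0.63 for both of its probes with overlapping groups (adjusted p = 0.435). The first has no overlap between the groups, although aged mouse 1 is close to the young mice, and its change was -0.25 without aged mouse 3. With the row as a block the changes were -0.12 for Itga11 and -0.06 for Itga1, and Itga1 was -0.37 without aged mouse 2. Itgb5, a partner of alphaV in vitronectin receptors, was also without overlap, at 5.59, 5.89 and 5.67 against 5.36, 5.25 and 4.87 (0.680-fold, log2 fold change -0.56, adjusted p = 0.284). Itgb5, Itga11 and Itga1 were named after their values were seen. The remaining 5 genes (Itga3, Itgav, Itgb3, Itgb4 and Itgb6) had changes from -0.24 to 0.25 and overlapping groups.

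Non-muscle cells that make many of these chains were followed through their markers. All 5 fibroblast markers had a lower mean in aged mice (median -0.72, from -1.56 for Col1a1 to -0.12 for Pi16), with a summed level of 375.8 to 430.1 in young and 167.1 to 332.1 in aged mice. Endothelial markers were divided, 3 of 6 higher and 3 lower (median -0.15, highest Pecam1 at 0.52), with a summed level of 15.6 to 18.8 against 11.4 to 13.7, and Cdh5, the endothelial cadherin, was -0.79 (adjusted p = 0.215). Of 6 Schwann cell markers 5 were tested and 4 had a lower mean (median -0.92), among them Prx, a myelin sheath protein, which passed the threshold (-1.29, adjusted p = 0.0428). Their summed level was 17.5 to 36.4 in young and 17.3 to 35.0 in aged mice. Platelet markers were higher on average in all 4 cases of the 4 tested of 5 (median 0.36, from 0.15 for Treml1 to 0.51 for Pf4, summed level 7.67 to 11.1 against 9.81 to 15.5). Of 4 satellite cell markers 3 were tested (median -0.02, summed level 14.0 to 14.6 against 14.1 to 16.6), from -1.19 for Calcr to 0.10 for Cdh15. The aged mean of Calcr (-3.97) was near the lowest signal well above background (-3.87, -3.83 and -4.07 in aged mice 1 to 3). The part of these cells in the lower levels of Lamc1, Lamb1, Itga6, Itga8 and Itga10 was not tested.

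**Figure D4:**
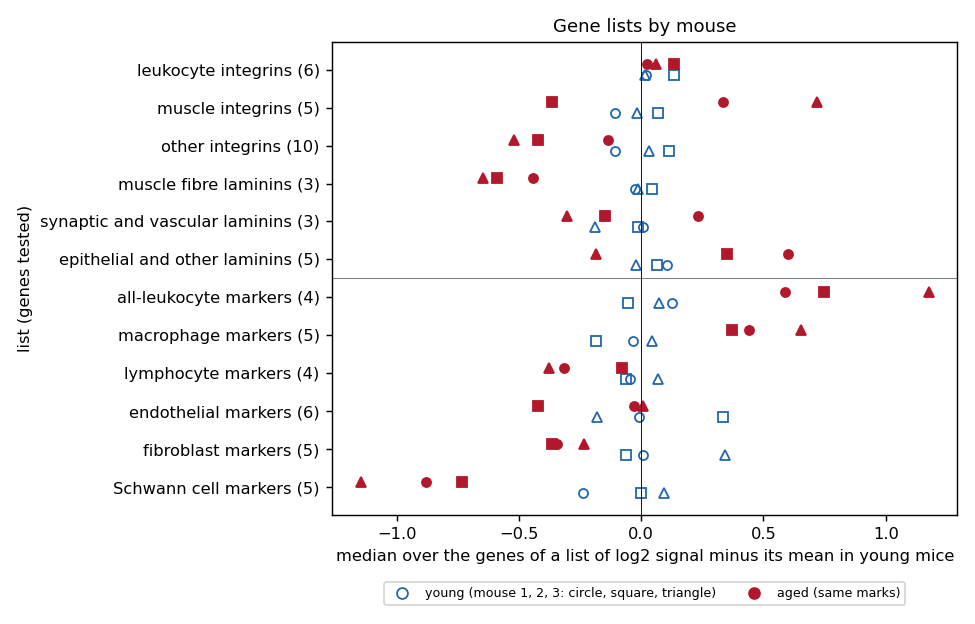
Gene lists by mouse. The x axis is the median, over the genes of a list, of the log2 signal minus its mean in young mice, with 1 point per mouse (3 young, open, and 3 aged, filled), and the y axis is the list with the number of genes tested. All 3 aged mice lie below the young mice for muscle fibre laminins (-0.44, -0.59 and -0.65), of which Lamc1 and Lamb1 were lower in every aged mouse. They also lie below them for other integrins and for lymphocyte, fibroblast and Schwann cell markers, and above them for the markers of all leukocytes and of macrophages. For leukocyte integrins the groups overlap, and for muscle integrins aged mouse 2 lies below and aged mice 1 and 3 above the young mice.

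Inside the cell, integrins are coupled to actin by talins, kindlins and the complex of integrin-linked kinase, PINCH and parvin. Of 20 such adhesion partners 17 were tested, 7 with a higher and 10 with a lower mean in aged mice (median change -0.05), none past the threshold and 1 lower (Lims2) at an unadjusted p under 0.05 (5.88%, beside 8.38% of all genes). Lims2, which encodes PINCH2, had the lowest change. It was 4.02, 4.70 and 4.33 in young and 3.41, 3.59 and 2.94 in aged mice (0.487-fold, log2 fold change -1.04, standard error 0.25, adjusted p = 0.174), without overlap. All aged mice were below all young mice for 2 of the 17 partners (11.8%), compared with 13.9% of all genes. Itgb1bp2, which encodes melusin, a muscle protein that binds the beta1 tail, had the highest change (1.07, adjusted p = 0.418), with young mouse 3 at 2.72 and the other young mice at 4.90 and 4.23.

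Outside the cell, laminins are tied into the basement membrane by nidogens, perlecan and collagen IV and are held by dystroglycan. All 10 genes listed for these partners were tested, and 7 had a lower and 3 a higher mean in aged mice (median -0.11), none past the threshold. Agrn, which encodes agrin, the laminin-binding proteoglycan that clusters acetylcholine receptors, was 2.57, 2.58 and 2.75 in young and 1.60, 2.0 and 1.05 in aged mice (0.471-fold, log2 fold change -1.08, standard error 0.26, adjusted p = 0.163). Nid1, which encodes nidogen-1, the link between the gamma1 chain and collagen IV, was 3.80, 3.67 and 3.98 in young and 3.18, 3.20 and 2.92 in aged mice (0.610-fold, log2 fold change -0.71, standard error 0.17, adjusted p = 0.166). Neither overlapped between the groups. These were the 2 of the 10 (20%) with all aged mice below all young mice, compared with 13.9% of all genes. Dag1, which encodes dystroglycan itself, changed by -0.12 and Hspg2, which encodes perlecan, by -0.11.

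Of 13 counter-ligands of the integrins, 6 were tested, 4 lower and 2 higher on average (median -0.37) and 3 of the lower ones at an unadjusted p under 0.05, as were 8.38% of all genes. Icam2, an endothelial ligand of the beta2 integrins, had the lowest change (-0.81, adjusted p = 0.214), followed by vitronectin (Vtn, -0.61, adjusted p = 0.264). Fibronectin (Fn1) varied least, at 4.10, 4.10 and 4.09 in young and 3.75, 3.81 and 3.69 in aged mice (0.786-fold, log2 fold change -0.35, adjusted p = 0.336). All aged mice were below all young mice for each of these 3 genes, as for 13.9% of all genes. Spp1, which encodes osteopontin, had the highest change (0.82, adjusted p = 0.722), with overlapping groups. Its young mean of -4.60 was below the lowest signal well above background on each young array. Vcam1 changed by 0.19.

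The spread between mice, which limma moderates with the variance of all genes, limited what could be seen for each member. The within-group SD of the members lay between 0.09 for Itgb7 and 0.95 for Lama1, with 0.28 as the median over all genes. Itga4, Itga5, Itgax, Lamb3 and Lama1 had the largest SD of the members, from 0.77 to 0.95. In contrast, the interval of Itgb7 (-0.28 to 0.42) and that of Itgal (-0.61 to 0.20) leave room only for smaller changes. Of the 7 members with more than 1 probe that passed the filter, the probes had the same direction for Itga1, Itga10, Itgb1, Itgb6 and Lama2 and opposite directions for Itgam and Itgav.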

How the data were processed

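Total RNA of the gastrocnemius of 3 young and 3 aged male mice was labelled with Cy3 and hybridised to single-colour Agilent arrays, 1 per mouse, by the authors. The deposited scanner files hold the processed intensity of each spot, already corrected for background by Feature Extraction (version 11.0.1.1 per the file headers, 9.5 per the submitters' processing notes). The deposited series values are the same intensities (largest log2 difference 0). How the authors normalized and tested the arrays is not given in the sources used here.

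Of 62976 spots, control and outlier-flagged spots were left out and spots of a probe averaged, which left 55681 probes, 28331 of them with a gene symbol. The log2 intensity was centred on the 75th percentile of each array. Probes had to be well above background in 3 or more of the 6 mice, and the brightest of these probes stood for a gene. Aged and young mice were compared with lmFit and eBayes of limma 3.58.1 (R 4.3.3) over 20900 genes, with Benjamini-Hochberg adjustment and a threshold of 0.05, after the script was tested on simulated data. The p-values rest on the spread between the 3 mice of a group, moderated with the variance of all genes. The number of mice limits the precision. Samples with the same number were not treated as pairs.

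The members and gene lists were chosen with earlier results of these data known. Values of every mouse were set to be given for leukocyte and muscle integrins, for laminins of fibre, synapse and vessels, and for the 3 other members with the largest change. Of the remaining lists, the genes with the highest and lowest change and those past the threshold were to be named. Genes named beyond this rule were chosen after their values were seen. Some genes that count in the totals are not reported here by name. Promoter windows came from RefSeq (GRCm38.p6). Alternatives covered background correction, normalization, scaling, the filter, the choice of probe, the variance trend, the slide row, a replicate block and leaving out each mouse.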

Additional observations from a re-analysis of the deposited data

How the results depend on the processing

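No integrin or laminin gene passed the threshold in limma under any of the 18 settings (0 of 32 tested, of 36 with no filter and of 29 with probes above background in all mice). At an unadjusted p under 0.05 there were 4 members within row 1 (6.22% of all genes lower and 4.79% higher) to 12 after median scaling (11.7% and 3.14%). The lowest adjusted p of a member was 0.0963. Of the 32 members, 19 kept their direction in every setting they were tested in. For members without overlap between the groups, leaving out a mouse or using the slide row could not change it. The number of genes called among all genes was 53, and 8 with no filter on dim probes, 35 where only probes above background in all 6 mice were used, 0 within slide row 1 and 5 with a replicate block. It ranged from 1 (without aged mouse 3) to 199 (without aged mouse 1) when 1 mouse was left out. The same-numbered mice were not alike (correlations of -0.0625, -0.271 and 0.0277), so the replicate block, under which the medians of the lists stayed at -0.07, 0.34 and -0.20, marks a shared number only. The median change of leukocyte integrins was -0.21 after median scaling, which moved the median of all genes from -0.06 to -0.21. It was 0.0315 with no filter, -0.205 with probes above background on all arrays and 0.0229 with the slide row as a block or within row 1, and -0.116 to 0.0965 when 1 mouse was left out. The median of laminins was 0.231 with the row as a block or within row 1.

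The row as a block and row 1 alone also gave the opposite direction for Itgb4 (0.0657), Itgb6 (0.140), Lama2 (0.260), Lama5 (0.122), Lamb2 (0.231), Lamb3 (0.598) and Lamc3 (-0.104), since both rest on aged mouse 1. Lamc3 was also -0.156 after normexp, -0.0191 after quantile normalization and -0.126 after median scaling, which gave -0.0772 for Itgb7. Leaving out 1 mouse gave ranges across 0 for Itga3 (-0.199 to 0.0369), Itga4 (-0.716 to 0.175), Itga5 (-0.0366 to 0.925), Itga7 (-0.292 to 0.0053), Itgb1 (-0.0146 to 0.692), Itgb6 (-0.319 to 0.0553), Lamb3 (-0.865 to 0.0059) and Lamc3 (-0.145 to 0.124). The cause was not tested. Signal near background limits Itgax, Itga5 and Lama1, whose probes were not well above background on every array.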
